A study of Homo sapiens with 18 samples.

Results

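Panc1 Paraclone cells were compared with the parental Panc1 cells from which they were cloned, across all genes. The comparison rests on 6 of the 18 RNA-seq libraries of the study, 3 of Panc1 Paraclone and 3 of parental Panc1 cells, chosen by their labels and not by any measured value. Panc1 (PANC-1) is a human line from a primary pancreatic ductal adenocarcinoma (PDAC) and served as the mesenchymal-like model, next to the epithelial line Panc89 from a lymph node metastasis. In both lines the study set parental cells beside Holoclone and Paraclone cells, which were obtained by single-cell cloning and kept for their colony shape, to ask how cells with and without stem cell traits differ. The labels give neither an introduced gene nor a treatment for any group. The parental cells are an uncloned culture, the 3 libraries of a variant came from 3 passages, and the labels name 1 Paraclone variant of Panc1. The p-values below therefore measure the spread between passages, and what belongs to the Paraclone state and what belongs to descent from a single founder cell cannot be told apart here.

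A single carcinoma cell can give rise to a compact, round colony with smooth borders, called a Holoclone and rich in self-renewing cells, or to a loose and scattered colony, called a Paraclone, whose cells are taken to have left the stem cell state. Colony shape depends on how firmly cells hold on to each other through cadherins and tight junctions, how they attach to laminins and collagens through integrins, and which growth factors and chemokines they secrete. In PDAC the same genes are read as epithelial or mesenchymal markers, since the epithelial–mesenchymal transition (EMT) is driven by repressors such as ZEB1, SNAI1 and the TWIST factors.

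The deposited values are scaled TPM, a level per transcript length that sums to about the same total in every library, on the scale log2(TPM + 1). They hold no read counts, so the depth of the libraries and the counting error are unknown. At least 1 TPM was reached by 13480 to 13686 genes in the parental and by 12932 to 13212 genes in the Paraclone libraries. The 100 most abundant genes took 29.3% to 32.0% of the TPM of the parental libraries and 31.0% to 36.4% of those of the Paraclone, and *FTH1*, the heavy chain of the iron store ferritin, alone went from 2810 to 4340 TPM in parental cells to 5400 to 11300 TPM in the Paraclone. Of the genes that define a carcinoma line, *KRT8*, *KRT18* and *KRT19* were each at 422 TPM or more in all 6 libraries and *KRT7* at 9.75 to 19.6 TPM, while *EPCAM* was at 8.91 to 12.5 TPM in parental cells and at 1.28 to 2.3 TPM in the Paraclone. Of the mesenchymal genes, *VIM* lay between 3290 and 5040 TPM and *ZEB1* between 12.7 and 18.1 TPM. Markers of other cells were scarce. The 15 leukocyte markers summed to 89.7 to 98.9 TPM in parental and 125 to 153 TPM in Paraclone libraries, nearly all of it *CD68*, a lysosomal gene that many cells use, at up to 96.8 and 151 TPM. The 10 endothelial markers summed to at most 4.98 TPM, and the 11 acinar and endocrine markers to at most 23.4 TPM, most of it *SYP*. Of these 3 lists, 7 members passed the filter on low values, with 0 higher and 0 lower (limma, and 1 higher and 0 lower at an unadjusted p under 0.05).

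Of the 16093 genes tested, 4599 (28.6%) differed between Panc1 Paraclone and parental Panc1 cells at an adjusted p under 0.05 (limma, Benjamini-Hochberg). In the Paraclone, 1177 genes (7.31%) were higher and 3422 (21.3%) were lower. A log2 fold change beyond 1 was reached by 459 of the higher and 820 of the lower genes, and one beyond 3 by 41 and 48. In 6898 genes (42.9%) the 3 Paraclone libraries did not overlap with the 3 parental ones. The split between higher and lower depends on the scale. The median gene stood at −0.17 in the Paraclone, and after median-of-ratios scaling, which sets that median to 0, 2002 genes were higher and 1772 lower, so that 47.0% of the changed genes were lower in place of 74.4%. Whether the larger share of the most abundant genes sets this shift was not tested. Medians of gene lists are given below as they stand, to be read against −0.17. Counts of list members are likewise to be read against the 7.31% higher and 21.3% lower among all genes. Values in parentheses after a gene are its log2 fold change ± SE, and a gene is said to have risen or fallen only where it passed the threshold. In bulk RNA, a change in the share of cells that use a gene and a change of its level per cell cannot be told apart.

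The 10 genes with the largest rise code mostly for secreted or matrix-bound proteins. These 10 and the 10 with the largest fall were chosen among genes without overlap between the groups. Their separation was set by that rule. *MMP1*, the interstitial collagenase (chr11:102789401-102798160 on GRCh38), was at 0.561, 0.451 and 0.157 TPM in the 3 parental libraries and at 204, 155 and 94.3 TPM in the Paraclone (log2 fold change 6.71 ± 0.60 SE, adjusted p = 6.76e-07). *RAC2*, a small GTPase known from blood cells (chr22:37225270-37259594), went from 0.494, 1.23 and 0.825 TPM to 103, 92.6 and 73.2 TPM (5.62 ± 0.30). *HGF*, the hepatocyte growth factor and ligand of MET (chr7:81699010-81770438), went from 0.25, 0.343 and 0.38 TPM to 36.4, 27.7 and 35.9 TPM (4.69 ± 0.13). Each of these genes was near or under 1 TPM in every parental library and over 27 TPM in every Paraclone library. The monocyte attractant *CCL2* (chr17:34255274-34257208) was already present in parental cells, at 37.6, 19.4 and 30.3 TPM, and reached 1110, 642 and 579 TPM (4.67 ± 0.22). *SRGN*, the proteoglycan serglycin (chr10:69088103-69104805), rose from 13.5, 5.73 and 11.2 TPM to 181, 207 and 198 TPM (4.21 ± 0.21), and *SCUBE3*, a secreted EGF-repeat protein (chr6:35213956-35253079), from 4.11, 5.52 and 4.79 TPM to 114, 98.3 and 106 TPM (4.21 ± 0.12). The remaining 4 were the cholesterol transporter *GRAMD1B* (4.27 ± 0.24), the secreted glycoprotein *STC1* (4.20 ± 0.28), the matrix glycoprotein tenascin C, *TNC* (4.17 ± 0.37), and matrix Gla protein, *MGP* (4.13 ± 0.34). These 4 had at most 0.995 TPM in any parental library and at least 16.6 TPM in any Paraclone library.

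The 10 genes with the largest fall include surface molecules and developmental transcription factors. *CD24*, a glycosylated surface protein used as a stem cell marker in PDAC (chr6:106969831-106975627), was at 106, 210 and 119 TPM in parental cells and at 0.83, 0.443 and 0.497 TPM in the Paraclone (−6.46 ± 0.22, adjusted p = 1.13e-11). Since *CD24* has close pseudogene copies, its absolute level is uncertain. *IGFBP2*, which binds insulin-like growth factors (chr2:216632828-216664436), went from 141, 176 and 153 TPM to 0.877, 0.902 and 0.759 TPM (−6.41 ± 0.20). *IFITM1*, an interferon-induced membrane protein (chr11:310041-315272), went from 756, 472 and 706 TPM to 4.07, 13.2 and 30.9 TPM (−5.58 ± 0.49). All 3 genes were among the abundant ones in parental cells, and in no library did the groups come near each other. The cytoskeletal adaptors *AFAP1L2* (chr10:114294824-114404756) and *ABLIM1* (chr10:114431112-114768061), which lie side by side, fell from 47.7, 66.6 and 54.3 TPM to 0.209, 0.189 and 0.0929 TPM (−5.61 ± 0.18) and from 65.2, 64.9 and 72.4 TPM to 1.84, 1.77 and 2 TPM (−4.58 ± 0.14). The homeobox genes *HOXC12* (chr12:53954903-53958956), *PAX2* (chr10:100735396-100829944) and *HMX3* (chr10:123135970-123139423) stood at 22.8 to 50.8 TPM in every parental library and under 0.3 TPM in every Paraclone library, *PAX2* being listed at 0 in one of them. The kinase *STK26* (−4.66 ± 0.16) and glutamine synthetase, *GLUL* (−4.54 ± 0.28), complete the 10. Of these 10 genes, 4 lie on chromosome 10.

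The Panc1 Holoclone, a clone of the same line, lay elsewhere for many of these genes. *CD24* was at 95.8 to 112 TPM there, *AFAP1L2* at 58.7 to 79 TPM and *PAX2* at 18.8 to 26.3 TPM, as in parental cells, while *MMP1*, *HGF* and *RAC2* were under 1 TPM. Among the others were *IFITM1*, at 16.6 to 27.3 TPM, and *HOXC12*, at 0.12 to 0.332 TPM, which were low in both clones, and *IGFBP2*, at 11.9 to 23.1 TPM, and *CCL2*, at 109 to 126 TPM, which lay between. *SRGN*, at 1.11 to 1.78 TPM, and *SCUBE3*, at 0.625 to 0.915 TPM, were lower in every Holoclone library than in any parental one.

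**Figure D1:**
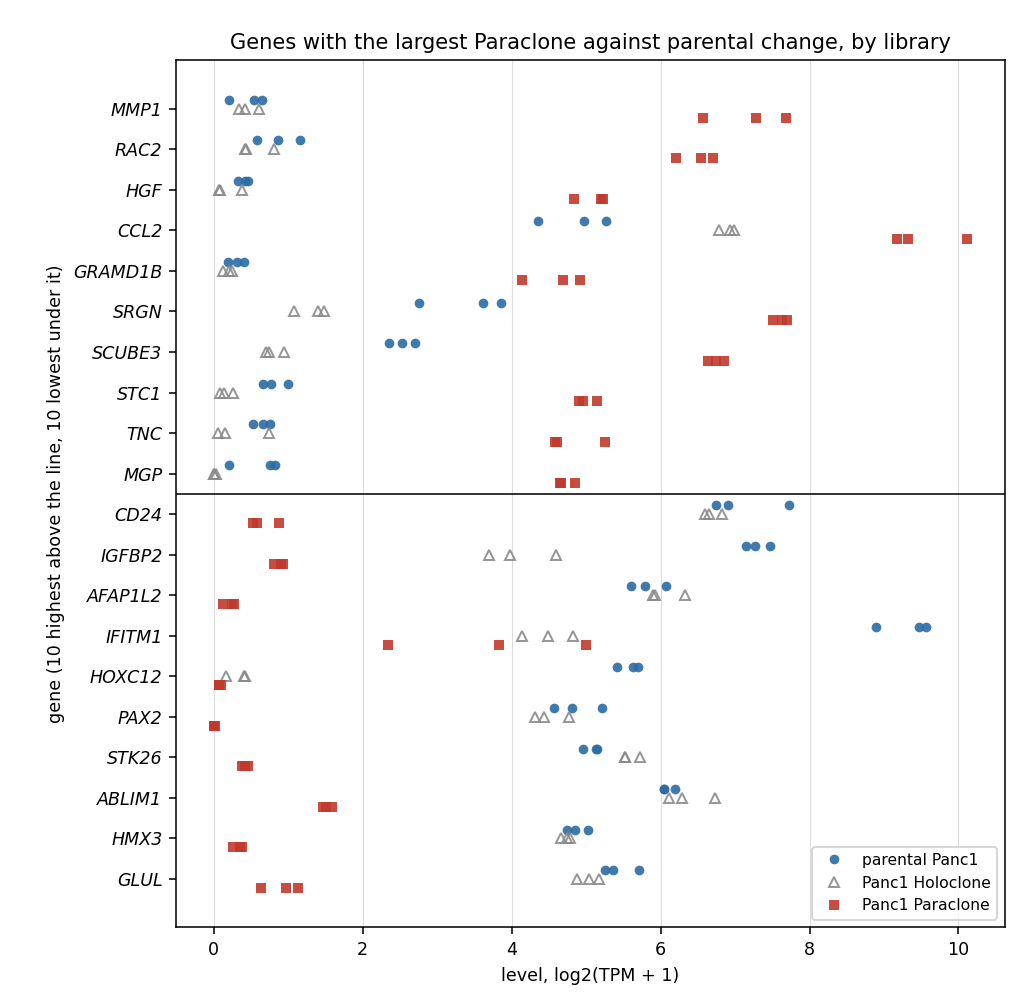
Levels on the log2(TPM + 1) scale of the 10 genes with the largest rise and the 10 with the largest fall in Panc1 Paraclone cells, one point per library for parental (blue circles), Holoclone (open triangles) and Paraclone cells (red squares), n = 3 a group. In all 20 genes the Paraclone points lie apart from the parental ones, as the rule for choosing them required. The Holoclone points lie nearer to the Paraclone ones in *IFITM1* and *HOXC12* and between the groups in *IGFBP2* and *CCL2*.

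Of the 8 stem cell and EMT markers that the study followed by qPCR, 1 fell and 1 rose. *NES*, which codes for the filament protein nestin, was at 125, 152 and 91.3 TPM in parental and at 8, 4.17 and 4.04 TPM in Paraclone cells (−4.30 ± 0.28, adjusted p = 2.3e-08), with the Holoclone at 21.8 to 31.3 TPM. *CDH1*, the epithelial cadherin, was low throughout, at 0.721, 1.51 and 1.83 TPM in parental and 2.1, 2.89 and 3.51 TPM in Paraclone cells (0.72 ± 0.19, adjusted p = 0.00989), and the call was lost without Paraclone replicate 3 (0.59, adjusted p = 0.0501) or parental replicate 1 (0.51, adjusted p = 0.0572). So the Paraclone of this mesenchymal-like line had the lower nestin and, by a narrow margin, the higher *CDH1*. The other 6 did not pass: *VIM* (0.19 ± 0.15), *ZEB1* (−0.26 ± 0.26), *ZEB2* (−0.25 ± 0.14), *L1CAM* (0.45 ± 0.26), *SOX2* (0.03 ± 0.34) and *OVOL2* (−0.25 ± 0.16), of which *SOX2* and *OVOL2* stayed under 0.4 TPM in all 6 libraries.

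Epithelial and mesenchymal genes did not move as blocks. Of 35 epithelial genes tested, 5 were higher, 14 lower and 16 not past the threshold (median −0.25, and 7 higher and 11 lower after median-of-ratios scaling). *OCLN*, the tight junction protein occludin, fell from 55, 40.2 and 58.2 TPM to 6.52, 9.77 and 7.35 TPM (−2.55 ± 0.18). *ESRP2*, a splicing factor of epithelial cells, fell from 10.3, 16.1 and 9.48 TPM to 0.528, 0.996 and 0.739 TPM (−2.86 ± 0.17), and *EPCAM* from 12.5, 8.91 and 12.2 TPM to 1.28, 1.61 and 2.3 TPM (−2.16 ± 0.15). In these 3 genes the groups did not overlap. Desmoplakin, *DSP* (−2.49 ± 0.13), and *CLDN3* (−2.11 ± 0.27) fell too. Against them stood the placental cadherin *CDH3*, up from 0.975, 0.587 and 0.908 TPM to 13.4, 11.2 and 11.5 TPM (2.84 ± 0.16), and the epithelial transcription factor *ELF3* (1.43 ± 0.27). The keratins overlapped between groups. *KRT19* (1.02 ± 0.29, adjusted p = 0.0148) lost its call without parental replicate 1 (0.76, adjusted p = 0.083) or 3 (0.84, adjusted p = 0.0681). *KRT8* (−0.76 ± 0.26, adjusted p = 0.04) lost it without Paraclone replicate 2 (−0.60, adjusted p = 0.164) or 3 (−0.59, adjusted p = 0.155) or parental replicate 2 (−0.46, adjusted p = 0.19). *KRT18* fell too, and its call was lost without Paraclone replicate 2 (adjusted p = 0.172) or 3 (0.159) or parental replicate 2 (0.202) or 3 (0.0554).

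Among 10 EMT transcription factors tested, *TWIST2* (1.49 ± 0.24) and *SNAI1* (1.05 ± 0.18) rose and 1 fell. The last was *TCF4* (−0.68), whose call was lost after either scaling and without Paraclone replicate 1 (adjusted p = 0.0944) or 2 (0.144) or parental replicate 2 (0.192) or 3 (0.065). *SNAI1* went from 9.42, 13.8 and 9.71 TPM to 16.9, 26.1 and 29.2 TPM. Of 28 mesenchymal genes, 9 were higher (32.1%, against 7.31% of all genes) and 6 lower (21.4%, near the 21.3% of all genes), with a median of 0.22. *SPARC*, a collagen-binding matrix protein, fell from 984, 608 and 1070 TPM to 78.5, 60 and 67.2 TPM (−3.64 ± 0.20), the neural cadherin *CDH2* from 4.35, 5.28 and 4.38 TPM to 1.82, 1.09 and 1.24 TPM (−1.26 ± 0.28), and the actin-binding *CALD1* by 1.66 on the log2 scale. In the opposite direction, *ACTA2*, smooth muscle actin, rose from 2.41, 1.28 and 1.96 TPM to 10.7, 17.3 and 18.5 TPM (2.50 ± 0.27), and *INHBA* (3.44 ± 0.22) and *TNC* did so as well. Of 14 smooth muscle contractile genes, 4 were higher (28.6%, against 7.31% of all genes), among them *FLNA* (0.95 ± 0.12) and *TPM1* (0.78 ± 0.14). A further 3 were lower (21.4%, near the 21.3% of all genes), among them the myosin kinase *MYLK* (−2.02 ± 0.16).

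Of 19 stem cell markers tested, 5 were higher and 5 lower (26.3% each, against 7.31% and 21.3% of all genes), with a median of −0.02. The share that was lower is thus near that of all genes. Beside *CD24*, *NES* and *EPCAM*, which fell, the hyaluronan receptor *CD44* went from 734, 744 and 835 TPM to 1620, 1950 and 2030 TPM (1.27 ± 0.20), the pluripotency factor *KLF4* from 5.67, 1.65 and 6.73 TPM to 13.2, 14.3 and 16.1 TPM (1.59 ± 0.33), the drug exporter *ABCG2* rose by 1.22 ± 0.33 and the retinal dehydrogenase *ALDH1A3* by 1.19 ± 0.29. The surface markers that are combined to sort PDAC stem cells therefore went apart, *CD44* up and *CD24* and *EPCAM* down. *MYC* (−0.27 ± 0.15) and *SOX9* (−0.34 ± 0.30) did not pass. Among 17 connexin and cadherin genes, 6 were higher (35.3%, against 7.31% of all genes) and 3 lower (17.6%, under the 21.3% of all genes). *GJA1*, connexin 43 of gap junctions, rose from 12.7, 12.3 and 13.6 TPM to 139, 123 and 157 TPM (3.33 ± 0.28), *PCDH7* by 3.17 ± 0.41 and the liver-intestine cadherin *CDH17* by 2.77 ± 0.12.

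The adhesion receptors and their laminin ligands were mostly higher. Of 26 integrin and laminin genes tested, 14 were higher (53.8%, against 7.31% of all genes) and 2 lower, with a median of 0.56. Among the laminin chains, *LAMA4* went from 10, 11.2 and 6.95 TPM to 126, 110 and 102 TPM (3.47 ± 0.23) and *LAMB1* from 31.8, 26.8 and 29.2 TPM to 125, 119 and 140 TPM (2.09 ± 0.11). Both were higher in every Paraclone library than in any parental one. Of the receptor chains, *ITGA5*, which binds fibronectin, rose from 44.3, 55.2 and 48.6 TPM to 269, 203 and 165 TPM (2.06 ± 0.18), and *ITGB4* (1.68 ± 0.31), *ITGA3* (1.26 ± 0.17), *ITGA2* (1.23 ± 0.17), *ITGA6* (0.92 ± 0.14) and the shared chain *ITGB1* (0.54 ± 0.11) were also higher, while *ITGA7* and *ITGB5* were lower. Fibronectin itself, *FN1*, stayed under 0.7 TPM in all 6 libraries (0.15 ± 0.30).

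Of 22 collagen genes tested, 9 were higher (40.9%, against 7.31% of all genes) and 6 lower (27.3%, against 21.3%), with a median of 0.28. The basement membrane chains of collagen IV were higher: *COL4A2* went from 1.42, 0.822 and 0.54 TPM to 23.9, 22.8 and 22 TPM (3.66 ± 0.20), *COL4A1* from 0.316, 0.36 and 0.899 TPM to 10, 8.42 and 6.8 TPM (2.63 ± 0.20), and *COL4A5* rose by 2.74 ± 0.12. The transmembrane *COL13A1* (3.48 ± 0.23) and the fibrillar *COL5A2*, at 45.4 to 56.1 TPM in parental and 358 to 412 TPM in Paraclone cells (2.85 ± 0.16), rose as well. The fibrillar *COL1A1* went the other way, from 11.8, 14.3 and 12.6 TPM to 1.13, 0.923 and 0.969 TPM (−2.79 ± 0.20). *COL4A1* and *COL4A2* are neighbours on chromosome 13 and are read from a shared promoter region. Of 21 matrix metalloproteinases, ADAM proteases and TIMP inhibitors, 5 were higher and 1 lower: after *MMP1*, the membrane-bound *ADAM19* went from 6.35, 9.81 and 5.59 TPM to 48.4, 31.3 and 25.1 TPM (2.10 ± 0.31) and *ADAM8* rose by 1.54 ± 0.34, while the gelatinase *MMP2* (0.15 ± 0.19) and the inhibitor *TIMP1* (0.48 ± 0.27) did not pass. Of 16 genes of the plasminogen system, 4 were higher and 1 lower. The urokinase receptor *PLAUR* rose from 13.2, 10.7 and 10.6 TPM to 38.8, 33 and 24 TPM (1.38 ± 0.21), while urokinase, *PLAU* (0.42 ± 0.33), did not pass, and *SERPINF1* fell by 2.02 ± 0.40.

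Some secreted signals of several families rose and others fell, among the latter *IL11* here and *BMP7*, *INHBB* and *WNT5B* below. Of 28 chemokines, interleukins and related genes tested, 9 were higher (32.1%) and 2 lower. After *CCL2*, the neutrophil attractants followed: *CXCL1* went from 7.66, 5.11 and 9.77 TPM to 99.8, 48.7 and 48.8 TPM (2.92 ± 0.50), and *CXCL8* from 1.78, 0.534 and 3.48 TPM to 23.8, 9.45 and 11.8 TPM (2.48 ± 0.46). *CXCL2* (2.16 ± 0.50) is a close relative of *CXCL1*, and reads could be split between them. The adhesion molecule *ICAM1* (1.50 ± 0.26) and the cytokine *LIF* (1.39 ± 0.24) rose, *IL11* fell by 1.77 ± 0.37, and *IL6* stayed under 0.3 TPM. Of 14 EGF receptor and ligand genes, 3 ligands were higher. Epiregulin, *EREG*, went from 2.71, 1.08 and 4.07 TPM to 77.2, 52.1 and 46.4 TPM (4.10 ± 0.29), amphiregulin, *AREG*, from 2.27, 0.688 and 4.68 TPM to 49.9, 45.1 and 34.4 TPM (3.79 ± 0.44) and *HBEGF* from 15, 5.96 and 18.8 TPM to 74.1, 62.3 and 55.3 TPM (2.31 ± 0.48). Their receptor did not follow. *EGFR* overlapped between groups (−0.65 ± 0.23, adjusted p = 0.0484), and its call was lost without Paraclone replicate 2 (adjusted p = 0.165) or 3 (0.142) or parental replicate 1 (adjusted p = 0.154) or 3 (0.17), as it was after either scaling. *MET*, the receptor of HGF, was at 63.6 to 74.7 TPM in parental and 58.6 to 97 TPM in Paraclone cells (−0.01 ± 0.19).

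**Figure D2:**
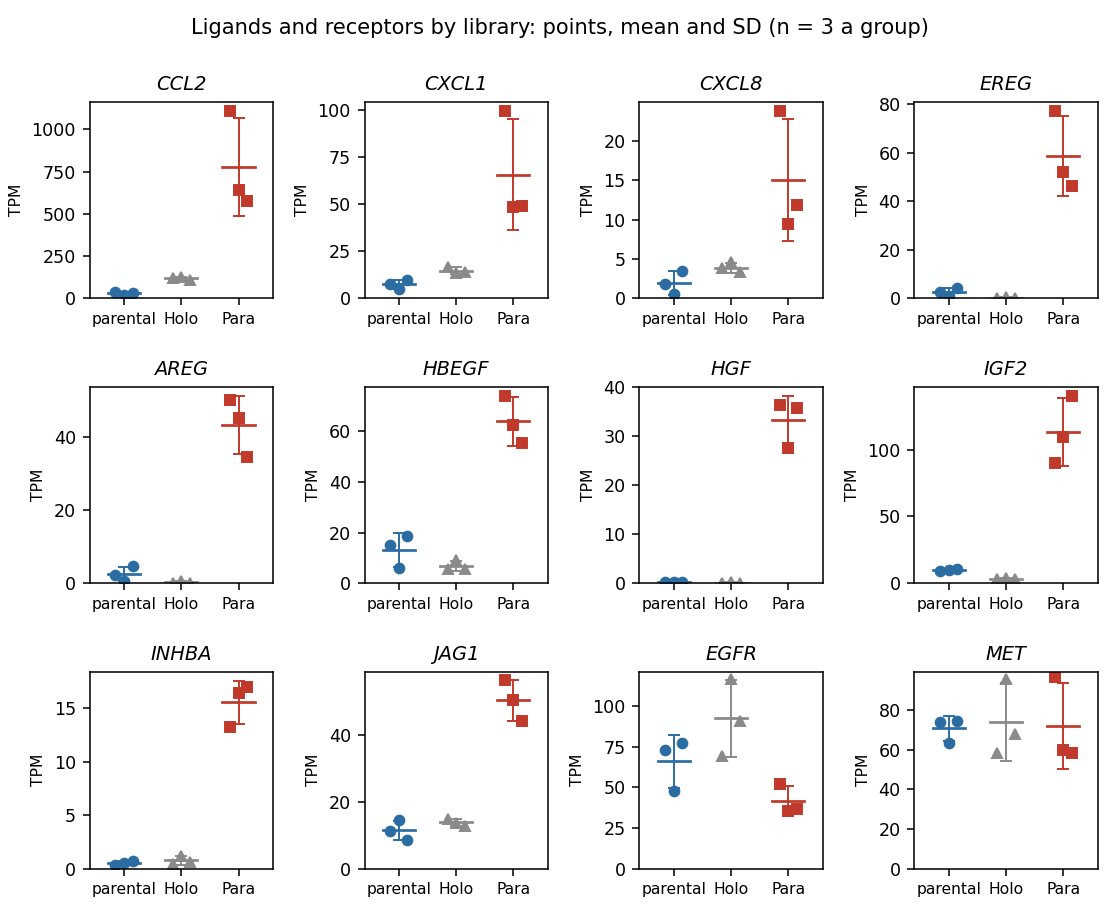
TPM of 10 ligands and the receptors *EGFR* and *MET* by library (points) with the mean and SD of each group (n = 3), each panel on its own linear axis from 0. The ligands are highest in Panc1 Paraclone cells in all 10 panels, whereas *EGFR* and *MET* overlap between parental and Paraclone cells. Only ligands that rose are shown, and *BMP7*, *INHBB*, *WNT5B*, *JAG2* and *IL11*, which fell, are not.

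Of 15 members of the IGF system, 5 were higher and 5 lower (33.3% each, against 7.31% and 21.3% of all genes). The ligand *IGF2* went from 8.92, 9.66 and 10.5 TPM to 90.2, 109 and 140 TPM (3.40 ± 0.14), although *H19*, the RNA next to it in the imprinted region on chromosome 11, did not differ detectably (284 to 310 against 259 to 327 TPM). Of the binding proteins, *IGFBP4* rose from 9.93, 16.1 and 12.4 TPM to 184, 109 and 84.1 TPM (3.15 ± 0.23) and *IGFBP3* from 6.37, 3.24 and 4.52 TPM to 32.2, 32.7 and 40.6 TPM (2.69 ± 0.28), while *IGFBP2* fell as given above and *IGFBP7* from 2.54, 3.15 and 3.22 TPM to under 0.06 TPM (−1.93 ± 0.26). The receptor *IGF1R* fell by 0.96 ± 0.17. The TGF-beta family had 7 of 31 members higher (22.6%) and 5 lower (16.1%, under the 21.3% of all genes). The activin subunit *INHBA* rose from 0.368, 0.48 and 0.709 TPM to 13.3, 16.4 and 17 TPM while its relative *INHBB* fell from 4.65, 8.74 and 5.88 TPM to 0.452, 0.251 and 0.35 TPM (−2.42 ± 0.19), and *BMP7* went from 9.51, 10.4 and 10.2 TPM to 0.0781, 0.321 and 0.121 TPM (−3.24 ± 0.26). *TGFBR2* (0.81 ± 0.19) and the feedback inhibitor *SMAD7* (1.17 ± 0.21) were higher, and *TGFB1* missed the threshold (0.46 ± 0.17, adjusted p = 0.0521).

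In the WNT pathway, 8 of 37 members were higher (21.6%) and 10 lower (27.0%), and the balance turned to 11 higher and 8 lower after median-of-ratios scaling. The largest changes were falls among receptors: *ROR2* went from 8.19, 11.3 and 9.23 TPM to 0.0214, 0.038 and 0.0221 TPM (−3.35 ± 0.13), *FZD7* from 24.1, 29.2 and 27.7 TPM to 1.76, 2.28 and 2.49 TPM (−3.14 ± 0.15) and *FZD6* fell by 2.16 ± 0.19. The ligand *WNT5B* fell from 38, 57.9 and 47.6 TPM to 6.85, 5.58 and 6.29 TPM (−2.74 ± 0.16). In the Notch pathway, 2 of 18 were higher (11.1%) and 6 lower (33.3%): the ligand *JAG1* went from 11.2, 14.5 and 8.63 TPM to 56.5, 50.6 and 44.3 TPM (2.07 ± 0.27), its relative *JAG2* fell by 1.24 ± 0.22, and *NOTCH1* did not pass (0.24 ± 0.22). Of 30 YAP and TEAD genes, 3 were higher and 12 lower (median −0.37), which became 3 and 5 after median-of-ratios scaling. *ARHGEF17* (−1.51 ± 0.19) and *TEAD1* (−0.78 ± 0.18) fell, and the classical targets *CCN1* (−0.03 ± 0.33) and *CCN2* (0.25 ± 0.54), as well as *YAP1* (−0.12 ± 0.10), did not pass.

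Immediate early genes varied between passages of parental cells. *EGR1* was at 19.4, 2.71 and 375 TPM in parental replicates 1, 2 and 3 and at 137, 160 and 197 TPM in the Paraclone (2.42 ± 1.01, adjusted p = 0.0864), and *FOS* at 10.6, 7.94 and 129 TPM against 21.7, 37 and 60 TPM. Of 29 AP-1, immediate early and MAPK feedback genes, 7 were higher (24.1%, against 7.31% of all genes) and 1 lower (3.45%, against 21.3%). Among those that were higher were *DUSP4*, with a mean of 0.0283 TPM in parental and 4.93 TPM in Paraclone cells (2.53 ± 0.13), *IER3* (1.07 ± 0.26) and *SPRY2* (1.00 ± 0.21). *JUN* (−0.15 ± 0.34) and *FOSL1* (−0.66 ± 0.34) did not pass.

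The promoters of genes on these lists are shown for the motifs of the factors most often tied to them, using RefSeq sequences on GRCh38.p14. The window searched, on both strands, ran from each gene's start to 250 bases before it. The AP-1 motif TGANTCA was found in the windows of 5.52% of the 887 genes that were higher and had a sequence, 3.75% of 2667 that were lower, 4.23% of 11821 tested and 6.6% of all 27305 promoters. The shares were 2.25%, 2.66%, 2.85% and 1.77% for the CRE motif TGACGTCA, 9.36%, 8.85%, 9.49% and 11.9% for the TEAD motif GGAATG, 13.6%, 17.2%, 16.2% and 17.5% for the E-box CACCTG bound by ZEB and SNAI factors, and 2.93%, 1.69%, 2.35% and 3.07% for the interferon-stimulated response element (ISRE). None of the 5 motifs thus separated the higher from the lower genes by more than a few points. The 4 stretches below, with the match in capitals, were chosen after their values were seen, to show the motif at 3 genes that rose and 1 that fell. They lie at chr4:73740392-73740478 for *CXCL8*, chr6:121435558-121435644 for *GJA1*, chr4:74445031-74445118 for *AREG* and chr11:313960-314039 for *IFITM1*, all on the plus strand, with the match starting 137, 48, 65 and 40 bases before the start that RefSeq gives, which for *IFITM1* lies inside the longer gene span of GENCODE given above.
CXCL8, AP-1: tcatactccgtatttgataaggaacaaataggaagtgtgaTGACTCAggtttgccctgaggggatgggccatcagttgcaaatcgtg
GJA1, AP-1: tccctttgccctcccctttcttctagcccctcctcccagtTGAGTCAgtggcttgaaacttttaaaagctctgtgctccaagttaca
AREG, CRE: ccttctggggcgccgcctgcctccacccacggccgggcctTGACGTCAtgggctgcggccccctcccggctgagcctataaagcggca
IFITM1, ISRE: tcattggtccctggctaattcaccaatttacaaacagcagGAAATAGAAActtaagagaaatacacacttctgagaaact
A match describes the letters and does not show that a factor is bound there.

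Genes of antigen presentation were mostly higher. Of 17 genes of HLA class I and antigen processing tested, 11 were higher (64.7%, against 7.31% of all genes) and 0 lower by limma, with a median of 0.74. At an unadjusted p under 0.05 they were 12 and 1. *HLA-E* went from 127, 81.3 and 110 TPM to 155, 242 and 270 TPM (1.05 ± 0.22). *HLA-C* (0.92 ± 0.18) was higher too, though reads can be shared among the class I genes. The peptide-trimming proteases *ERAP1*, at 23.7 to 28.8 TPM in parental and 57.2 to 63.9 TPM in Paraclone cells (1.19 ± 0.17), and *ERAP2* (1.39 ± 0.35), the loading factor *TAPBP* (0.98 ± 0.18), the peptide transporter *TAP1* (0.82 ± 0.19) and the immunoproteasome subunit *PSMB8* (0.84 ± 0.20) were also higher. Interferon-stimulated genes as a whole did not rise with them. Of 40 tested, 3 were higher and 4 lower (6 and 3 after median-of-ratios scaling). The 4 were *IFITM1*, its neighbours *IFITM2*, at 399 to 486 TPM in parental and 42.1 to 93.5 TPM in Paraclone cells (−2.77 ± 0.31), and *IFITM3* (−0.71 ± 0.18), which share sequence with it, and *MX2* (−2.39 ± 0.68). *ISG15* (−0.02 ± 0.55) and *MX1* (−0.94 ± 0.58) did not pass.

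Of 34 glycolysis and hypoxia genes, 8 were higher and 0 lower by limma, or 13 and 5 at an unadjusted p under 0.05 (median 0.28). *HIF1A*, the oxygen-regulated transcription factor, went from 66.3, 65.4 and 67.2 TPM to 160, 177 and 198 TPM (1.41 ± 0.15), its hydroxylase *EGLN3* from 0.432, 0.639 and 0.462 TPM to 7.69, 6.12 and 8.03 TPM (2.45 ± 0.29), and *PFKFB3* rose by 1.08 ± 0.17, while *LDHA* overlapped between groups (0.38 ± 0.36). Of 29 targets of the oxidative stress factor NRF2, 9 were higher (31.0%, against 7.31% of all genes) and 2 lower (6.9%, against 21.3%), with a median of 0.38. The heme oxygenase *HMOX1*, on chromosome 22, rose from 109, 92.5 and 118 TPM to 213, 347 and 438 TPM (1.58 ± 0.31), and the pentose phosphate enzyme *TKT* (1.20 ± 0.19) rose with it, while *NQO1* missed the threshold (0.66 ± 0.28, adjusted p = 0.0998). Of 28 ATF4 and serine synthesis genes, 0 were higher and 8 lower by limma (28.6%, against 21.3% of all genes, a share near the background), or 1 and 9 at an unadjusted p under 0.05 and 1 and 3 after median-of-ratios scaling. The folate enzyme *ALDH1L2* went from 18.8, 5.95 and 17.8 TPM to 0.658, 2.59 and 3.51 TPM (−2.20 ± 0.36). *PHGDH*, the first enzyme of serine synthesis, stood at 477, 373 and 480 TPM against 65.9, 200 and 243 TPM (−1.57 ± 0.41), the size resting in part on Paraclone replicate 1 (−1.0 without it). *ATF4* itself did not pass (0.14 ± 0.19).

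The death receptor *FAS* was at 2.41, 3.99 and 2.22 TPM in parental and at 21.8, 11.5 and 11.4 TPM in Paraclone cells (2.01 ± 0.28). Cell cycle genes varied between passages more than between groups. Of 97 tested, 1 was higher and 2 lower, and *MKI67* was at 30.1, 57 and 25.2 TPM in parental and at 46.2, 18.8 and 11.3 TPM in Paraclone replicates 1, 2 and 3. Of 32 cholesterol and fatty acid synthesis genes, 5 were higher and 2 lower, of 19 gemcitabine transport and metabolism genes 2 and 3 (3 and 2 after median-of-ratios scaling), of 15 mitochondrially encoded genes 1 and 0 by limma (4 and 0 at an unadjusted p under 0.05), and of 79 cytosolic ribosomal protein genes 7 and 1, the last becoming 20 and 0 after median-of-ratios scaling. The gemcitabine kinase *DCK* (−0.24 ± 0.31) and the drug's target *RRM1* (−0.18 ± 0.51) did not pass. Among 14 transcription factors of pancreas and gut, 3 were higher and 4 lower: *FOXA1* went from 0.465, 0.644 and 0.323 TPM to 7.31, 5.83 and 8.72 TPM (2.48 ± 0.24) and *GATA6* from 0.568, 0.202 and 0.73 TPM to 7.52, 6.93 and 6.54 TPM (2.43 ± 0.17), and *PDX1* (−2.02 ± 0.13) and *CDX2* (−1.87 ± 0.26) fell.

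**Figure D3:**
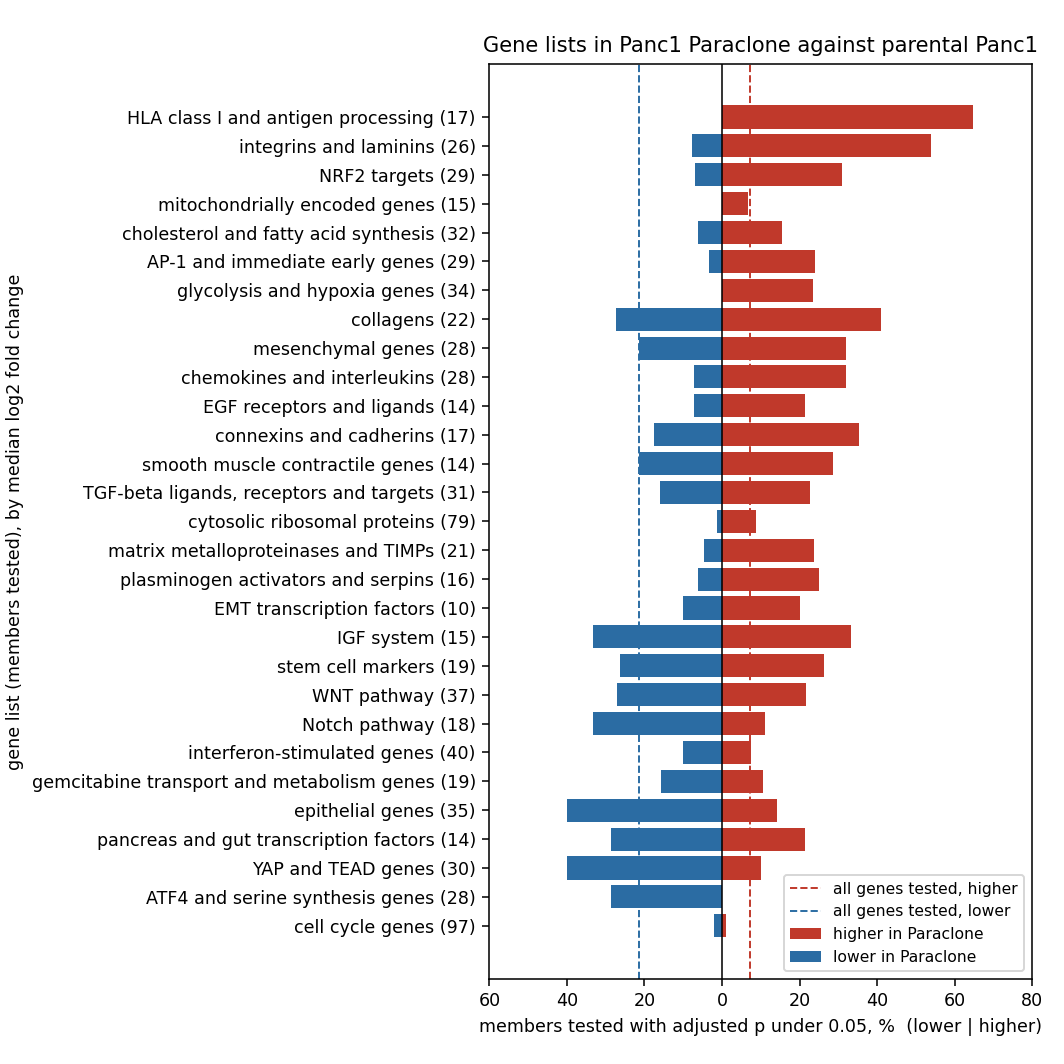
Percent of the tested members of each gene list that were higher (red, to the right) or lower (blue, to the left) in Panc1 Paraclone than in parental Panc1 cells at an adjusted p under 0.05, with the number of members tested in parentheses and lists ordered by median log2 fold change. Dashed lines give the shares among all 16093 genes, 7.31% higher and 21.3% lower, and the HLA class I list, with 64.7% higher, and the integrin and laminin list, with 53.8%, reach farthest to the right.

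Changes were not spread evenly over the genome. On chromosome 22, 118 of 367 genes were higher (32.2%) and 13 lower, with a median of 0.32, and all 5 of its 10 Mb windows lay above the median of all genes. On chromosome 10, 28 of 604 genes were higher and 271 lower (44.9%), with a median of −0.45. The step lay at 40 Mb: the 4 windows before it had medians of −0.07 to −0.18, near the −0.17 of all genes, and the 10 windows after it medians of −0.46 to −0.75, with 251 of 460 genes lower (54.6%). Set against all genes of the library, the median deviation of these 460 genes was between −0.19 and −0.22 in every Paraclone library. In every parental library it was between 0.17 and 0.21 on the log2 scale. *AFAP1L2*, *ABLIM1*, *PAX2* and *HMX3* lie in this stretch, but so do *SRGN*, *COL13A1*, *ACTA2* and *FAS*, which rose. Other runs of neighbouring windows were chromosome 18 from 40 to 70 Mb, with 22 of 70 genes higher and 1 lower (median 0.29), chromosome 13 from 90 to 110 Mb, with 10 of 51 higher (0.24), and, with medians of −0.44 to −0.60, chromosome X from 10 to 30 Mb (31 of 57 lower), chromosome 3 from 170 to 190 Mb (39 of 92) and chromosome 2 from 190 to 220 Mb (74 of 155) and from 230 Mb on (42 of 103). The first 20 Mb of chromosome 17 had window medians of −0.52 and −0.41. The windows and the rule for runs, 2 or more neighbours of at least 15 genes that differ from all genes by over 0.25, were chosen after seeing the values and carry no test. Of 281 windows, 19 were higher and 26 lower by this margin in Panc1 Paraclone, against 7 and 17 in Panc89 Paraclone. In the Panc1 Holoclone the stretches on chromosomes 10 and 22 had medians of 0.00 and 0.07 against parental cells, whereas those on chromosome 18 (0.59), 13 (0.41) and X (−0.59) had the sign seen in the Paraclone, with the parental libraries shared by both. DNA copy number was not measured, and its part in these stretches was not tested.

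**Figure D4:**
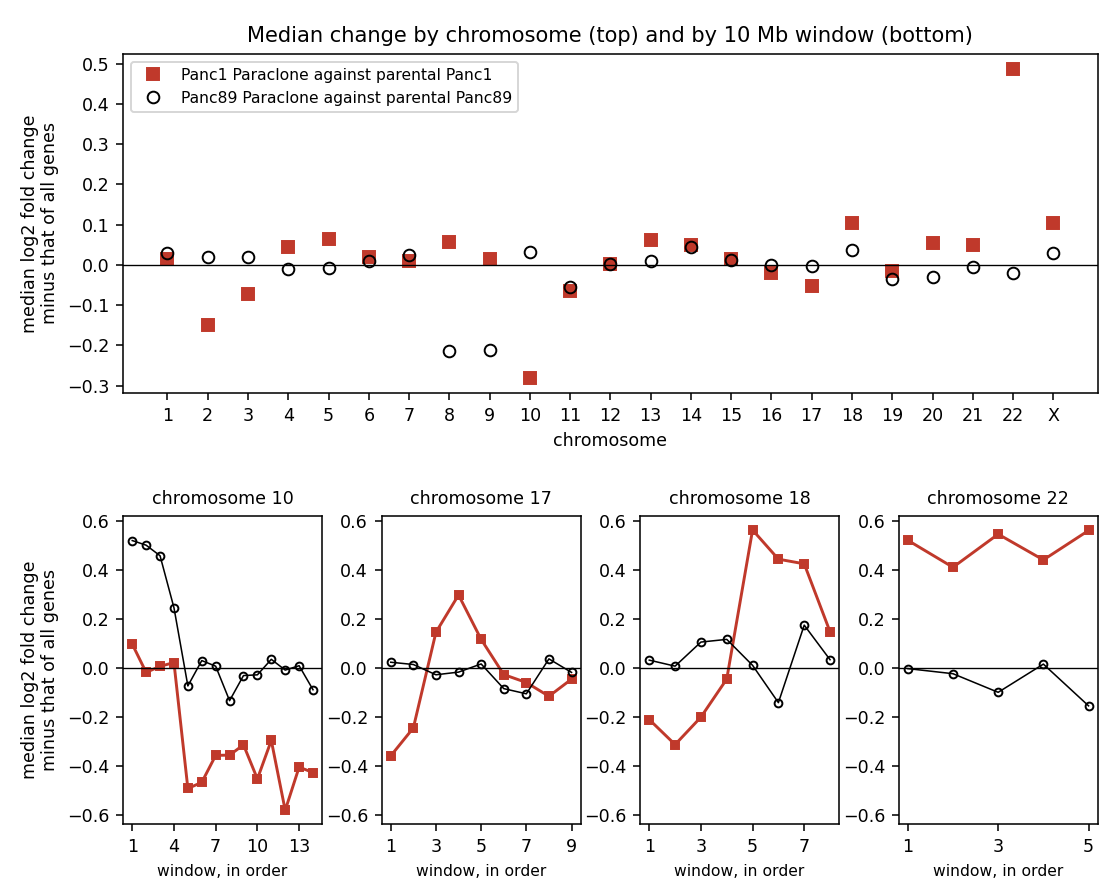
Median log2 fold change of the genes of each chromosome minus the median of all genes tested (top), and of successive 10 Mb windows along chromosomes 10, 17, 18 and 22 (bottom), for Panc1 Paraclone (red squares) and Panc89 Paraclone (open circles), each against its own parental cells. Chromosome 22 stands at 0.49 and chromosome 10 at −0.28 in Panc1, while in Panc89 the 4 first windows of chromosome 10 stand at 0.25 to 0.52 and chromosome 10 as a whole at 0.03.

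The Paraclone of the epithelial line Panc89 was compared with its own parental cells in the same fit, which shares no library with the Panc1 comparison. The change differed between the lines for 4159 of 16093 genes (25.8%), 1418 with a more positive and 2741 with a more negative change in Panc1. The median gene stood at −0.17 in Panc1 and at −0.02 in Panc89. How far this shift of scale sets the split was not tested. Of the 1279 genes that changed in Panc1 by over 1 on the log2 scale, 337 also changed in Panc89, 212 of them in the same direction and 125 in the opposite one. For comparison, 3120 of all 16093 genes tested changed in Panc89. All 20 genes with the largest rises and falls differed between the lines, which their choice by size in Panc1 partly sets. *MMP1* was −0.76 ± 0.60 in Panc89, a difference of 7.48 (adjusted p = 1.38e-05), *CD24* −0.25 (difference −6.22) and *HGF* 0.00 (4.69). Of the 20, 6 changed in the same direction in Panc89: *STC1* rose by 2.24, *TNC* by 1.89, *GRAMD1B* by 1.55 and *RAC2* by 0.98, and *IGFBP2* fell by 3.92 and *GLUL* by 1.49. *MGP* (−1.14) and *AFAP1L2* (0.90) changed in the opposite direction there. Of the other genes described, examples of a shared direction are *INHBA* (2.03), *ITGA5* (1.27), *PLAUR* (1.08) and *ADAM19* (4.02), which rose in both Paraclones, and *BMP7* (−1.82) and *IGFBP7* (−4.85), which fell in both. Examples of opposite directions, each past the threshold, are *LAMA4* (3.47 in Panc1 and −2.01 in Panc89), *IGFBP4* (3.15 and −1.84), *IGFBP3* (2.69 and −2.48) and *CXCL1* (2.92 and −1.59). HLA class I genes had a median of 0.74 in Panc1 and −0.41 in Panc89, with 11 of 17 differing between the lines. Integrins and laminins had medians of 0.56 and 0.45, yet 12 of 26 differed between the lines, against 25.8% of all genes. *ZEB1* and *ZEB2*, which did not pass in Panc1, rose by 1.08 and 0.89 in Panc89, and *SOX2* fell there by 4.03.

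**Figure D5:**
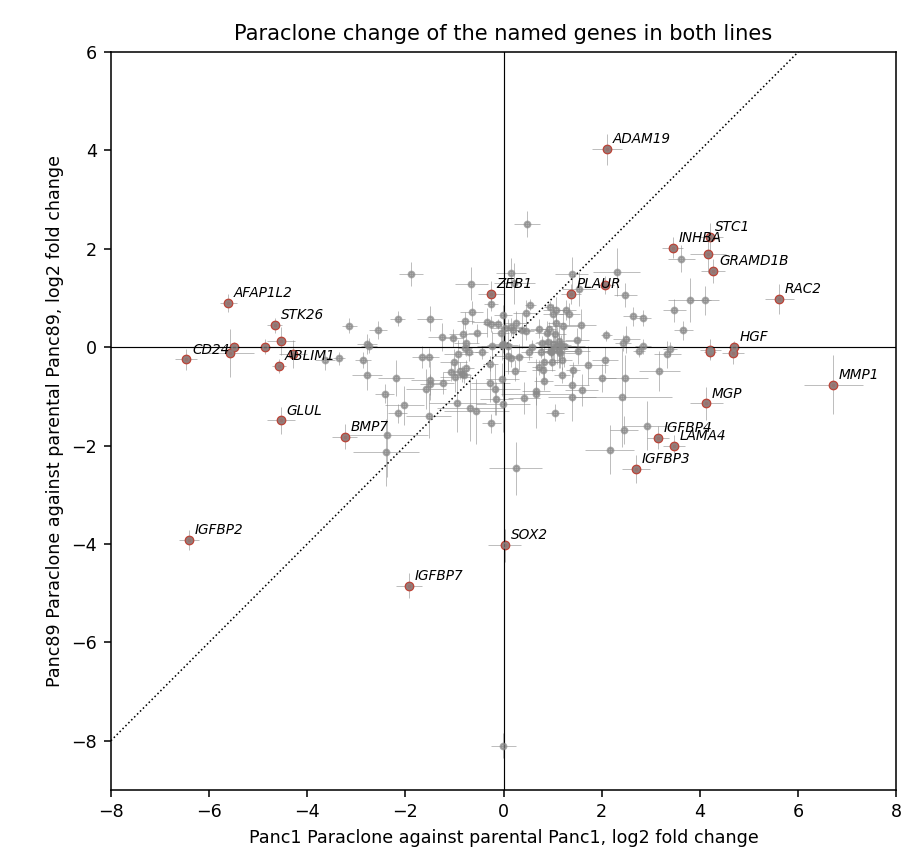
Log2 fold change of Paraclone against parental cells in Panc1 (horizontal) and Panc89 (vertical) for the named genes, with standard errors, and the dotted line marking equal changes. *MMP1* and *CD24* lie far out on the Panc1 axis and near 0 on the Panc89 axis, while *IGFBP2*, *STC1*, *TNC* and *INHBA* lie in the quadrants of equal direction.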

How the data were processed

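RNA of each cell variant was isolated by the authors from 3 passages, made into stranded poly(A) libraries, sequenced paired-end and quantified with kallisto (0.46.1 in the submitters' processing notes) against the GRCh38 transcriptome, and imported per gene as scaled TPM. Each deposited value is log2 of a TPM with 1 added, for a gene symbol in a library, and no column holds the authors' own tests. That the log base is 2 follows from the sums of the back-transformed values, and 10923 of 40266 symbols are listed at 0 throughout. TPM keep no depth, so no interval for counting error is given, and the log2 scale understates changes of genes near 1 TPM.

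Libraries were grouped by their titles. Group means of all 6 groups were fitted with limma 3.58.1 (lmFit, eBayes with trend) in R 4.3.3 on 16093 genes, those that reached 1 TPM in 3 or more of the 18 libraries, with a pseudocount of 1, two-sided p-values and Benjamini-Hochberg adjustment at 0.05; the difference between the lines is a contrast of the same fit. The code was tested on simulated data first. Gene lists are described by counts and medians without a set test. A list's or stretch's level in a library is the median, over its genes, of the deviation from the gene's mean. The same median over all genes tested in that library is subtracted from it. Cell cycle genes are those in Seurat 5.3.0, and positions come from GENCODE 44. The software also included data.table (version 1.17.8), pandas 2.3.3 and Python 3.11.15.

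The genes, lists and comparisons were chosen with earlier results of these data known. Genes are named for size (the 10 highest and 10 lowest with no overlap between groups and at least 10 TPM in the higher group), as the study's markers, as up to 4 members past the threshold in a list with at least 5 TPM in the higher group, or for a defining role in a list; *COL4A5*, *DSP*, *CLDN3*, *ELF3*, *ALDH1A3*, *MYLK*, *DUSP4*, *TCF4*, *ITGA2*, *ITGA3*, *ITGB4*, *ITGA7*, *ITGB5*, *ICAM1*, *LIF*, *IL11*, *IGF1R*, *HLA-C*, *TAP1*, *PSMB8*, *PDX1* and *CDX2* were added after their values were seen. Alternatives covered the pseudocount, the filter, the libraries in the fit, a replicate block, the scaling, a fold change threshold and leaving out each library. Libraries with the same replicate number did not deviate together (correlations of −0.281, −0.166 and 0.101), so the groups were compared without pairing. Some genes of the lists and 1 list are not reported here.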

Additional observations from a re-analysis of the deposited data

Results flagged for a closer look

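The Paraclone change differed between Panc1 and Panc89 in a test of the difference itself for all 20 genes named by size and for 5 of the 8 study markers, at an adjusted p under 0.05 over all genes. The difference is the log2 fold change in Panc1 minus that in Panc89. It was positive for *MMP1* (7.48), *MGP* (5.27), *CCL2* (4.79), *HGF* (4.69), *RAC2* (4.64), *SCUBE3* (4.30), *SRGN* (4.26), *GRAMD1B* (2.72), *TNC* (2.28) and *STC1* (1.96). It was negative for *AFAP1L2* (−6.51), *CD24* (−6.22), *HOXC12* (−5.50), *IFITM1* (−5.47), *STK26* (−5.11), *PAX2* (−4.87), *HMX3* (−4.67), *ABLIM1* (−4.19), *GLUL* (−3.05) and *IGFBP2* (−2.49). Of the study markers, *NES* differed by −4.15, *SOX2* by 4.05, *ZEB1* by −1.34, *ZEB2* by −1.13 and *OVOL2* by −0.72. The 20 genes were chosen for their size in Panc1, so a smaller change in Panc89 is partly set by that choice. *HGF*, *HOXC12* and *PAX2* changed by 0.0, 0.0006 and 0.006 in Panc89, so their difference repeats the change in Panc1. Whether such genes were present in Panc89 at a level from which they could fall is not given here. For *SOX2*, *ZEB1* and *ZEB2* the change past the threshold was that of Panc89.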

How the results depend on the processing

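The number of genes changed in Panc1 Paraclone was 4567 with a pseudocount of 0.1, 4592 without a filter, 3958 with the stricter filter, 3711 with both groups alone, 4635 with the Panc1 libraries alone and 3801 and 3774 after upper quartile and median-of-ratios scaling. Adding a log2 fold change over 1 to the threshold left 1279 genes, and 2232 for the difference between the lines. Leaving out each library in turn gave 3140 to 4323 genes, and 3258 to 4549 for the difference between the lines. Replicate numbers did not pair the libraries, and with the replicate block 3978 genes changed and 3572 differed between the lines. The split between higher and lower genes depended on scaling, with 74.4% of changed genes lower in TPM, 52.6% after upper quartile and 47.0% after median-of-ratios scaling. Without counts, the counting error of genes near 1 TPM is unknown. Among the named genes, the log2 fold change kept its side of the threshold in 2576 alternatives, lost it in 155 and gained it in 27, and list medians moved beyond the replicate spread in 63 of them and stayed within it in 446. No called value changed sign under the alternatives run, while the balance of higher and lower genes turned with median-of-ratios scaling in all genes and in the WNT, interferon and gemcitabine lists. With 20 Mb in place of 10 Mb windows, a choice made after seeing the data, the share of windows far from the other genes was 14.7% in place of 16.0%.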
